A study of Mus musculus with 4 samples.

Results

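The uncoupling proteins Ucp1, Ucp2 and Ucp3 were examined in brown and white fat of mice with and without the protein kinase ASK1. They were found by name, as every probe that the scanner output annotates with 1 of these 3 gene symbols. This gave 3 genes of the 22066 matched to a gene table and 4 probes of the 55681 on the array, with 1 probe each for Ucp1 and Ucp2 and 2 probes for Ucp3. All 4 probes were well above background on all 4 arrays, so no member was lost to a filter on dim signals.

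Uncoupling proteins are carriers of the SLC25 family in the inner mitochondrial membrane. Ucp1 is the thermogenic protein of brown adipocytes. Activated by fatty acids, it lets protons return to the matrix without ATP synthesis, so that the energy of respiration is released as heat. Noradrenaline acting on beta-adrenergic receptors raises cyclic AMP, which drives both lipolysis and transcription of Ucp1 through PKA and p38, and ASK1 (encoded by Map3k5) is a MAP3K of the p38 and JNK cascades. Ucp2 is found in many tissues and is known for its expression in macrophages and other immune cells, where it has been tied to oxidant production and substrate export. Ucp3 is mainly found in skeletal muscle and brown fat, and its level is known to follow fatty acid supply.

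Gene expression was measured in interscapular brown adipose tissue (iBAT) and epididymal white adipose tissue (eWAT) of wild-type (WT) and whole-body ASK1-deficient (ASK1KO) male C57BL/6J mice aged 10 weeks, under normal conditions. RNA from 3 mice was pooled for each genotype and tissue and hybridised to 1 single-colour Agilent array, giving 4 arrays. The 2 genotypes were bred separately, so that line and genotype cannot be told apart. With 1 array per condition there is no replicate, no test was possible, and every ratio is a description of these 4 pools. In a bulk sample, fewer cells of a type and less RNA per cell cannot be told apart.

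All 4 arrays lay on 1 slide and were scanned once, between 28985 and 33389 probes were well above background, and 0 spots were saturated. The labelled tissues carried their markers. Of 21 brown adipocyte genes measured in the WT comparison, 18 were at least 2-fold higher in iBAT and 0 were lower, against 16.4% and 13.4% of all genes, whereas all 5 white adipocyte genes measured were at least 2-fold lower there. Adipoq, the adiponectin gene of both kinds of adipocyte, differed between genotypes by a log2 ratio of 0.13 in iBAT and 0.09 in eWAT. Skeletal muscle genes were present in iBAT, with 17 of 17 well above background in each genotype. For Map3k5 itself, the signal of probe A_52_P656714 was 448 in WT iBAT, 117 in ASK1KO iBAT, 701 in WT eWAT and 194 in ASK1KO eWAT, a log2 ratio of -2.0 in iBAT and -1.76 in eWAT. The second Map3k5 probe, A_55_P2079967, differed by -0.06 and -0.51. The part of Map3k5 removed in these mice is not given in the sources used here, so it is unknown which of these probes checks the genotype.

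The array measures each transcript through synthetic probes of 60 bases, and the sequences of 3 of the 4 are given here because the values of Ucp1 and Ucp2 and the first of the Ucp3 values rest on them. They are printed 5′ to 3′ as in the scanner output, in lower case with nothing marked, and their positions are on mm9, where all 3 genes lie on the plus strand of the reference. The Ucp1 probe (A_51_P426353) lies at chr8:85821788-85821847, from base 1076 of the transcript. The Ucp2 probe (A_51_P297105) lies at chr7:107647809-107647868, from base 1259. Ucp3 probe 1 (A_66_P108247) lies at chr7:107630399-107630458, from base 745.
Ucp1 probe: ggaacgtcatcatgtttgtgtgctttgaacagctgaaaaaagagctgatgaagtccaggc
Ucp2 probe: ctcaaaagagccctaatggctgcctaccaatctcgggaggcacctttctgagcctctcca
Ucp3 probe 1: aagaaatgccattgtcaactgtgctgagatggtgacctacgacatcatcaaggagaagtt
Ucp3 probe 2 (A_52_P380379) lies at chr7:107634291-107634350, from base 1797 of the same transcript, and starts 3892 bases after the start of probe 1. Ucp2 and Ucp3 are close paralogs and neighbours on chromosome 7. Whether the probe of either also binds transcript of the other was not tested, so their values are uncertain to that extent.

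**Figure D1:**
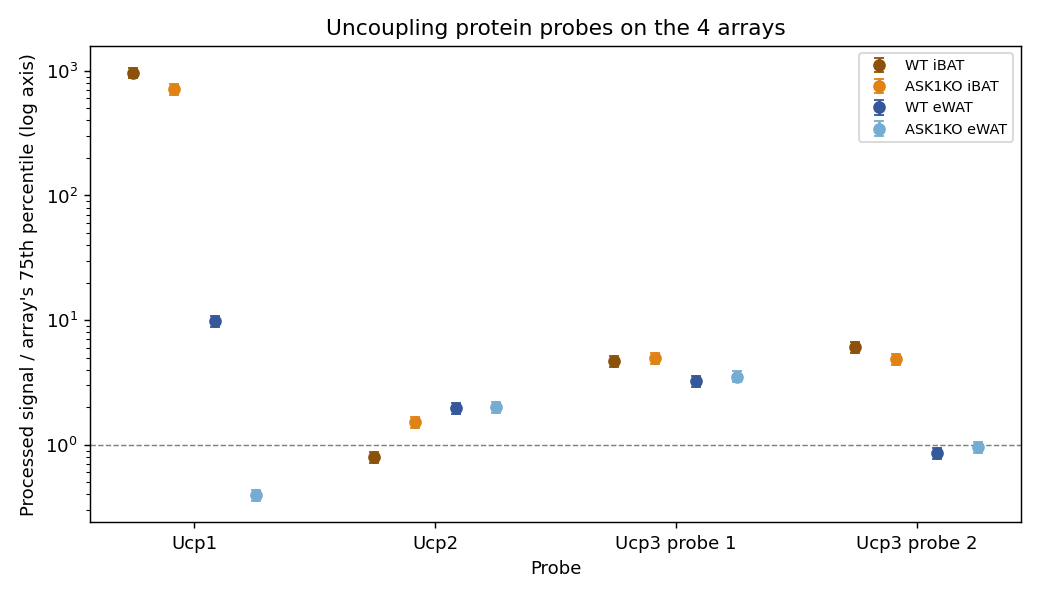
Level of each uncoupling protein probe (x axis) on the 4 arrays, as the processed signal divided by the array's 75th percentile (y axis, log scale). Points are single arrays and bars are the scanner software's error of the spot. Ucp1 lies at 965 in WT iBAT and at 0.397 in ASK1KO eWAT, while the other 3 probes stay between 0.799 and 6.08.

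Ucp1 showed a modest difference between genotypes in brown fat and a large one in white fat. Its processed signal was 343275 in WT iBAT, 263161 in ASK1KO iBAT, 6603 in WT eWAT and 252 in ASK1KO eWAT. Both iBAT arrays were high, WT eWAT was far lower and ASK1KO eWAT lower still, and the software error of each spot was about 10%. All neighbouring steps in this order exceeded that error. The signals in iBAT were at 43.3% and 35.3% of the scanner's saturation level, so the upper end of the range did not limit them. On the log2 scale relative to the 75th percentile of each array, the level was 9.91 in WT iBAT, 9.47 in ASK1KO iBAT, 3.29 in WT eWAT and -1.33 in ASK1KO eWAT.

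In iBAT the log2 ratio of Ucp1, ASK1KO over WT, was -0.44 with a software error of 0.20, or 1.36-fold lower without ASK1. The median SD of the log2 ratio over repeated spots of a probe was 0.0869 over 276 probes. The Ucp1 difference exceeded this spread between repeated spots, the kind called technical spread below. Nothing is known of the spread between arrays or between mice. It did not reach 2-fold, which 1.02% of the 14377 genes measured did in the lower direction and 0.835% in the higher. Of all genes, 8.48% had a lower ratio, and the median was -0.07 with 59.5% of genes below 0.

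In eWAT the log2 ratio of Ucp1 was -4.63 with a software error of 0.21, that is 24.7-fold lower without ASK1. Of 15377 genes, 0.865% were at least 2-fold lower and 0.286% at least 2-fold higher, and 11 genes, Ucp1 included, had a ratio this low or lower. The median over all genes was 0.02. Ucp1 in ASK1KO eWAT was still well above background. The 6 spots adjacent to the Ucp1 spot ranged from 9.24 to 40801 on the WT eWAT array and from 9.23 to 41167 on the ASK1KO eWAT array.

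The genotype ratio of Ucp1 in iBAT exceeded that in eWAT by 4.18 on the log2 scale. Of 14059 genes measured in both tissues, 14 had a difference at least as high and 2.70% differed by more than 2-fold in either direction. This difference between tissues was not tested. Seen along the tissue contrast, Ucp1 was 98.4-fold higher in iBAT than in eWAT in WT and 1785-fold higher in ASK1KO, where 16.4% and 12.3% of genes, respectively, were at least 2-fold higher in iBAT. At that contrast 32 of 14236 genes in WT and 2 of 14513 in ASK1KO, Ucp1 included, had a ratio as high. The genotype and tissue comparisons share arrays and are not independent of each other.

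**Figure D2:**
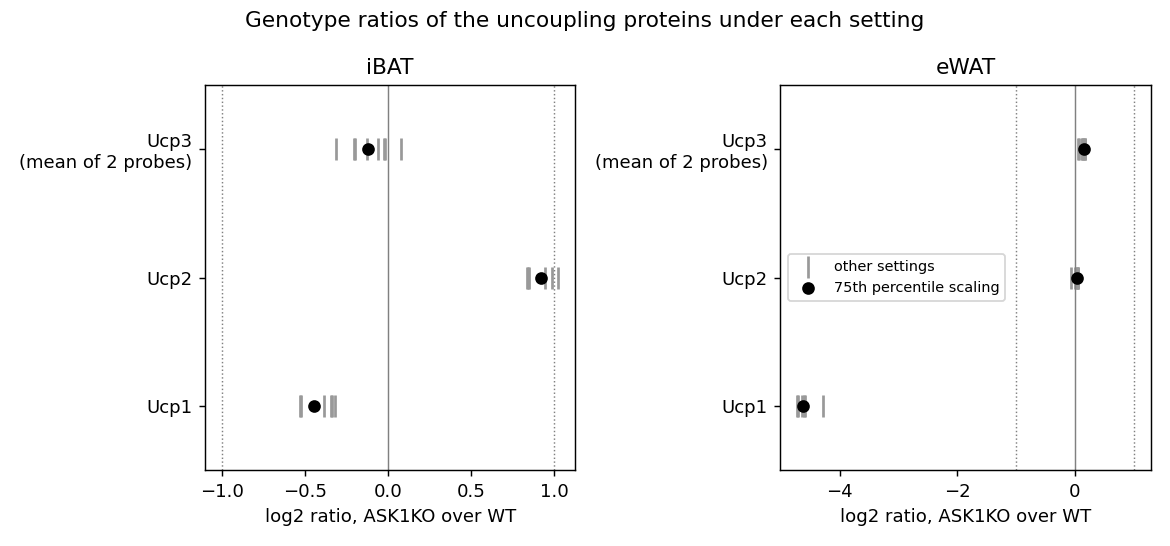
Log2 ratio of ASK1KO over WT (x axis) for Ucp1, Ucp2 and the mean of the Ucp3 probes in iBAT (left) and eWAT (right). Black points are the values scaled to the 75th percentile, grey ticks are the other settings (for Ucp3 also each probe alone), and dotted lines mark 2-fold. Ucp1 stays between -0.53 and -0.32 in iBAT and between -4.72 and -4.28 in eWAT, and Ucp2 between 0.84 and 1.02 in iBAT.

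To place the low Ucp1 levels of eWAT beside other brown adipocyte genes, each gene was expressed as a percentage of its own level in WT iBAT. Ucp1 stood at 1.02% in WT eWAT and 0.0412% in ASK1KO eWAT, a difference of 0.975 percentage points, and at 73.5% in ASK1KO iBAT. Cidea, a lipid droplet protein of brown adipocytes, stood at 1.18% and 0.253% in the eWAT of WT and ASK1KO, a difference of 0.932 points. Fabp3, a fatty acid-binding protein of brown fat and muscle, stood at 0.619% and 0.0765%. Dio2, which activates thyroid hormone, stood at 0.628% and 0.309%. These 4 genes were near 1% of the brown fat level in WT eWAT and lower in ASK1KO eWAT, and of the 4 the relative gap was largest for Ucp1. Over the 19 brown adipocyte genes well above background on all 4 arrays, 14 were lower in ASK1KO than in WT eWAT, and the difference, WT minus ASK1KO, ranged from -19.8 to 1.14 percentage points with a median of 0.358. The low end of that range is Zic1, whose value rests on its dimmer probe alone (A_55_P2009774, with signals of 80.2, 90.8, 94.9 and 118 in WT iBAT, ASK1KO iBAT, WT eWAT and ASK1KO eWAT). The brighter Zic1 probe, A_51_P194230, had 855 and 669 in iBAT and was not well above background in eWAT. Apart from Zic1 the lowest difference was -3.52 points, for Ebf2. The 5 genes that were not lower in ASK1KO eWAT were Zic1, Ebf2, at 65.7% in WT and 69.3% in ASK1KO, Slc29a1, at 51.1% and 52.8%, Kcnk3, at 5.01% and 5.54%, and Ppara, at 4.12% in WT with a difference of -0.082 points.

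**Figure D3:**
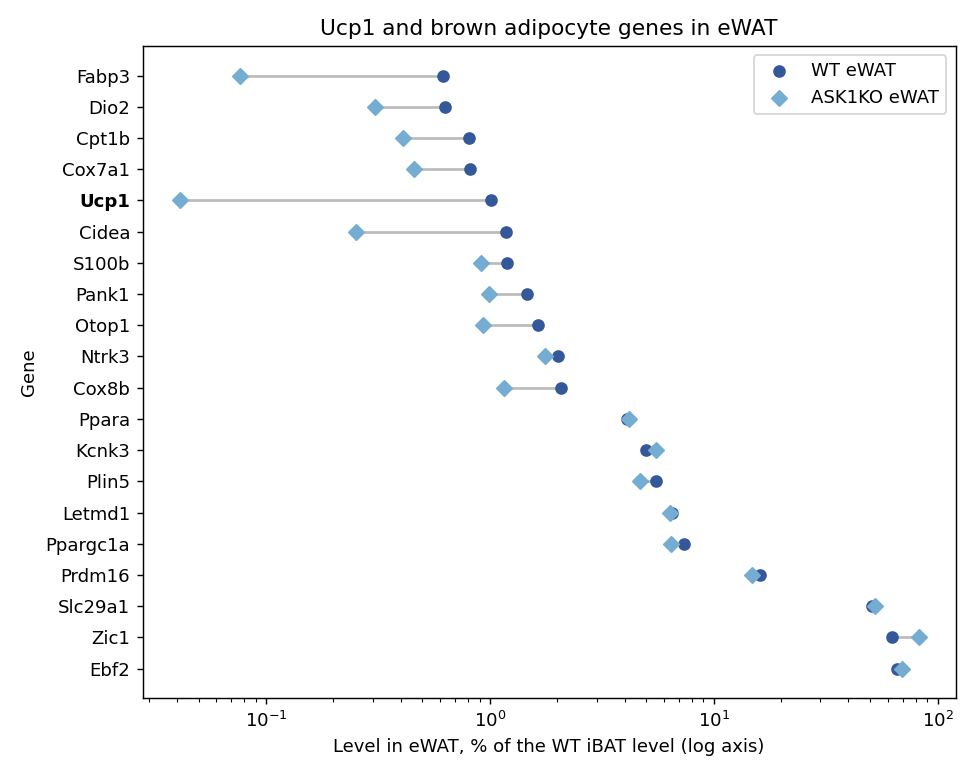
Level of Ucp1 and 19 brown adipocyte genes in WT eWAT (circles) and ASK1KO eWAT (diamonds), as a percentage of each gene's own level in WT iBAT (x axis, log scale). Ucp1 lies at 1.02% and 0.0412%, while Ebf2 at the bottom lies at 65.7% and 69.3%. The Zic1 points rest on its dimmer probe alone.

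The lower Ucp1 of ASK1KO eWAT came together with lower levels of markers of several other cell types. Of 19 brown adipocyte genes measured in eWAT, 14 were below 0, against 45.9% of all genes, with a median log2 ratio of -0.23, and 3 were at least 2-fold lower: Fabp3 at -3.02, Cidea at -2.23 and Dio2 at -1.02, where 0.865% of all genes were. Dio2 was past 2-fold in 4 of 6 other settings of background correction and scaling. Slc27a2, a fatty acid transporter on the brown list, was not well above background in ASK1KO eWAT. Which cells gave its signal in WT eWAT was not tested. Slc27a2 was at least 12.2-fold lower, and Elovl3, a fatty acid elongase, at least 1.66-fold lower. For these bounds the dim signal was replaced by the faintest level that still counted as well above background on that array. The summed level of the brown list, in units of the array's 75th percentile, was 72.6 in WT eWAT and 46.0 in ASK1KO eWAT, against 3762 and 3273 in iBAT. Of the 13 muscle genes measured, 11 were below 0, with a median of -0.30, and Tnni2 at -1.04 and Acta1 at -1.02, both components of the contractile fibre, were more than 2-fold lower, against 0.865% of all genes, in 5 and 4 of the 6 other settings. The summed level of the muscle list was 11.7 in WT eWAT and 6.61 in ASK1KO eWAT.

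Hepatocyte genes differed more. All 10 hepatocyte genes measured in eWAT were below 0, with a median of -3.33, and 7 were at least 2-fold lower, against 0.865% of all genes, of which Mup20 at -6.30, Ahsg at -5.58, Alb at -4.26 and Serpinc1 at -4.03 were the lowest. Among those not well above background in ASK1KO eWAT, Ambp was at least 81.0-fold lower, Fgg 49.0-fold, Fgb 42.0-fold, Ttr 37.7-fold and F2 20.0-fold. The signal of Alb, which encodes albumin, was 3234 in WT eWAT and 158 in ASK1KO eWAT. All 17 of the hepatocyte list were well above background in WT eWAT and 10 in ASK1KO eWAT, with summed levels of 351 and 318, most of which came from Cyp2e1, a gene that fat also expresses and that differed by a log2 ratio of -0.0042. In iBAT the list had 7 genes well above background in WT and 13 in ASK1KO, with Mup20 higher in ASK1KO by 1.95. Of the 7 measured there, 4 were above 0 and 3 below. Among those not well above background in WT iBAT, Alb was at least 5.62-fold higher in ASK1KO iBAT and Ahsg 5.23-fold. Ambp was at least 2.75-fold higher there, Ttr 2.18-fold, Fgg 2.13-fold and Fgb 1.20-fold. The part of brown, muscle or liver transcripts in the Ucp1 difference was not tested.

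Genes with a pattern over the 4 arrays closest to that of Ucp1 were sought among 14056 genes, by the root mean square distance of log2 levels after each gene's mean was removed. They were Fabp3 at 0.58, Cidea at 1.07, Ttn at 1.09, Tnni2 at 1.28 and Myh8 at 1.30. Ttn, Tnni2 and Myh8 encode titin, a troponin and a myosin heavy chain of striated muscle. All 5 were lower in ASK1KO eWAT, with log2 ratios of -3.02, -2.23, -1.84, -1.04 and -1.08 in that order, and between -0.18 and 0.17 in iBAT. Since they were chosen by closeness to Ucp1, a shared direction follows from the choice and is no separate result. None matched Ucp1 closely, since the nearest gene still lay 0.58 away.

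In iBAT, Ucp1 was lower together with most brown adipocyte and mitochondrial genes. Of 22 brown adipocyte genes measured, 18 were below 0 with a median of -0.23, and 2 were at least 2-fold lower, Elovl3 at -4.10 and Dio2 at -2.37, against 1.02% of all genes. The signal of Elovl3 was 1276 in WT iBAT and 77.4 in ASK1KO iBAT, and that of Dio2 was 9820 and 1978. Cidea differed by -0.18. All 17 genes of the respiratory chain and mitochondrial content list were below 0, between -0.61 and -0.01 with a median of -0.24, and none reached 2-fold. Over all genes 59.5% were below 0. Under quantile normalization the median was -0.07 for this list and -0.11 for the brown list, and when only detected probes set the percentile -0.13 for both, so the size of these shifts depends on the scaling. In eWAT the same list ran from -0.06 to 0.10. The muscle list in iBAT had a median of 0.07, 0 of 17 genes past 2-fold, and summed levels of 1137 in WT and 1124 in ASK1KO.

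Of 34 genes measured in iBAT from the pathway that induces Ucp1, 0 were at least 2-fold higher, against 0.835% of all genes, and 1 was lower, against 1.02%. This was the targeted gene itself, Map3k5, at -1.03 over its 2 probes and past 2-fold in 3 of the 6 other settings, while 28 were below 0 with a median of -0.23, or -0.13 when only detected probes set the percentile. In eWAT, 36 were measured, with a median of 0.01, and Map3k5 at -1.14 was again the only gene at least 2-fold lower, where 0.865% of all genes were. At least 2-fold higher in ASK1KO eWAT, where 0.286% of all genes were, stood 2 genes, Zfp516 at 1.89 and Irf4 at 1.02, both transcription factors that activate Ucp1. Zfp516 was past 2-fold in 5 of the 6 other settings and Irf4 in 3. The signal of Zfp516 was 16.2 in WT iBAT, 17.6 in ASK1KO iBAT, 30.2 in WT eWAT and 106 in ASK1KO eWAT, and was well above background in eWAT alone. Irf4 was at 1014, 711, 463 and 886 in the same order. Over the whole list in eWAT, 18 genes were above 0 and 18 below. Whether any of them bears on the Ucp1 difference was not tested.

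Among receptors, Adrb3, the beta-adrenergic receptor typical of adipocytes, differed by -0.45 in iBAT and 0.07 in eWAT, and Adrb1 by -0.97 and -0.08. The brighter Adrb1 probe, with signals of 2135 in WT iBAT and 1027 in ASK1KO iBAT, was at -1.12 in iBAT. The p38 kinase genes Mapk14 and Mapk11 differed by -0.17 and 0.02 in iBAT and by 0.05 and -0.11 in eWAT. Ppargc1a, a coactivator of mitochondrial genes and Ucp1, differed by -0.34 and -0.19 over probes that disagreed in iBAT, at -0.75 for the brighter and 0.08 for the dimmer, and Prdm16, a brown fat transcription factor, by -0.47 and -0.11. None of these 6 reached 2-fold as a mean over probes, but for Adrb1 in iBAT that depended on the probe and on shifts between scalings of up to -0.085.

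Fatty acids are both the fuel and the activator of Ucp1. Of 19 genes for fatty acid release, uptake and oxidation, 1 was at least 2-fold higher in ASK1KO iBAT, Angptl4 at 1.02, which encodes an inhibitor of lipoprotein lipase, and 0 were lower, against 0.835% and 1.02% of all genes. Angptl4 was past 2-fold in 4 of the 6 other settings. The median was -0.29, and -0.09 under quantile normalization. In eWAT 0 were higher and 1 was lower, Fabp3, against 0.286% and 0.865% of all genes, with a median of 0.07. Angptl4 was higher in ASK1KO eWAT too, by 0.74.

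**Figure D4:**
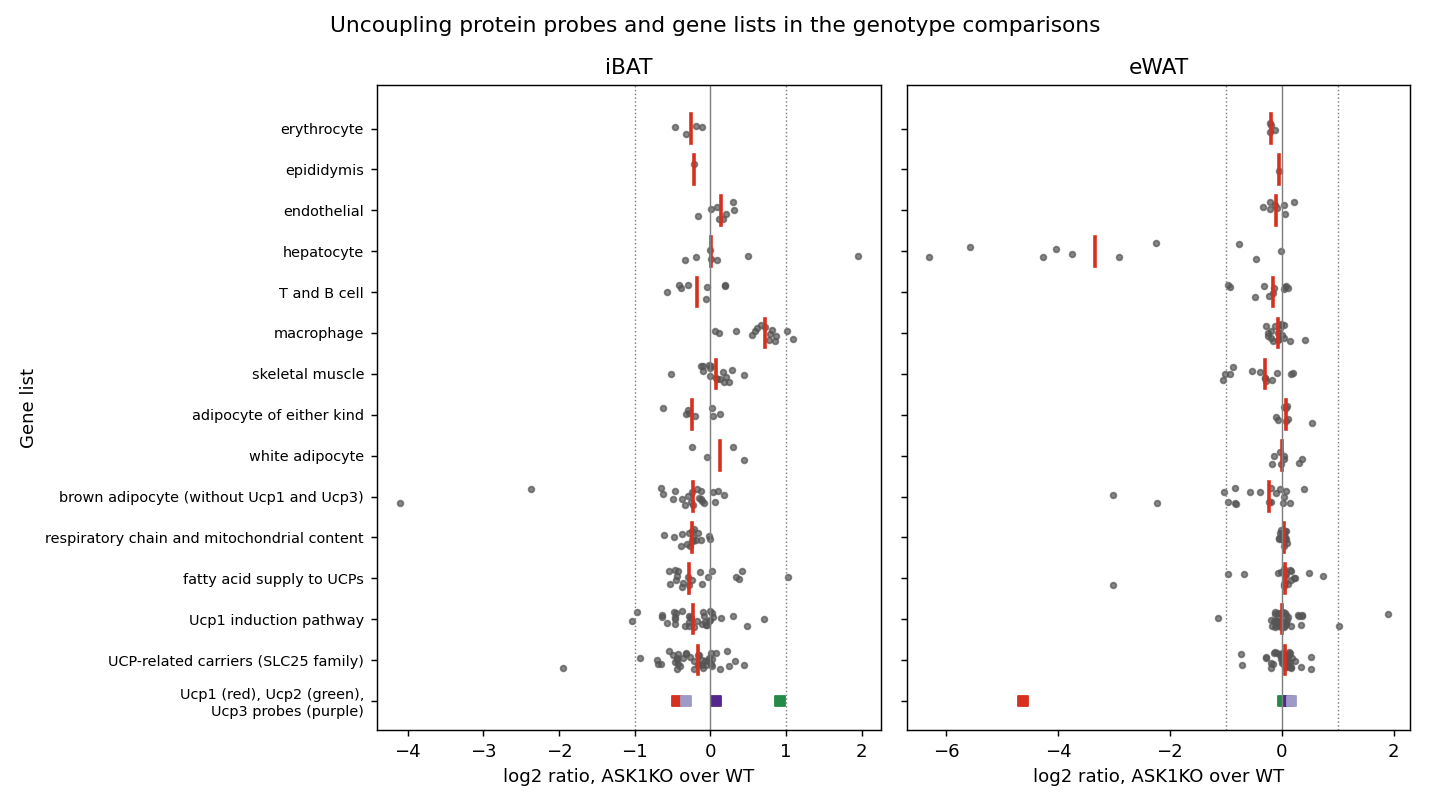
Log2 ratio of ASK1KO over WT (x axis) in iBAT (left) and eWAT (right) for the uncoupling protein probes (squares) and for each measured gene of 14 lists (grey points, spread vertically for legibility). Red bars are list medians and dotted lines mark 2-fold. In eWAT the low Ucp1 value of -4.63 lies among hepatocyte genes, and in iBAT the Ucp2 value of 0.92 lies among macrophage genes.

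Ucp2 showed the reverse tissue pattern of Ucp1, with its lowest level in WT iBAT. Its signal was 284 in WT iBAT, 562 in ASK1KO iBAT, 1327 in WT eWAT and 1275 in ASK1KO eWAT. Relative to the 75th percentile the log2 levels were -0.32, 0.60, 0.98 and 1.01. ASK1KO iBAT lay between WT iBAT and the eWAT arrays, and the eWAT arrays did not differ beyond the software error.

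In iBAT the log2 ratio of Ucp2 was 0.92 with a software error of 0.21, that is 1.89-fold higher in ASK1KO. This fell just short of 2-fold, and 154 of 14377 genes, Ucp2 included, had a ratio as high. In eWAT the ratio was 0.03, and -0.06 without scaling. The genotype ratio was thus higher in iBAT by 0.89, as high or higher in 325 of 14059 genes, a difference that was not tested. Between tissues Ucp2 was 2.47-fold lower in WT iBAT than in WT eWAT, where 13.4% of genes were at least 2-fold lower in iBAT, and 1.33-fold lower in ASK1KO iBAT than in ASK1KO eWAT, where 12.6% were. Scaling mattered here: without any scaling the ASK1KO tissue ratio went from -0.41 to -1.18, and scaling on probes detected on all 4 arrays brought the iBAT genotype ratio from 0.92 to 1.02, just over 2-fold.

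Macrophage genes were higher in the same array as Ucp2. All 15 macrophage genes measured in iBAT were above 0 in ASK1KO, between 0.06 and 1.10 with a median of 0.72 (the lowest, Cd14, lies within the 0.085 by which scalings shift all genes), and 2 were at least 2-fold higher, Mpeg1 at 1.10 and Fcgr1 at 1.01, which encode a pore-forming protein and an Fc receptor. Under 6 other settings of background correction and scaling, Mpeg1 stayed past 2-fold in 5 and Fcgr1 in 2. Over all genes in iBAT 0.835% were at least 2-fold higher and 59.5% were below 0. The summed level of the list was 29.3 in WT iBAT and 42.5 in ASK1KO iBAT, and 15 and 18 of its 18 genes were well above background. In eWAT the median was -0.06 over 18 genes, with summed levels of 204 in WT and 202 in ASK1KO. None was past 2-fold there, near the 0.286% higher and 0.865% lower of all genes. Between tissues the median of the list was -2.97 in WT and -2.26 in ASK1KO, next to -1.30 and -0.41 for Ucp2. Lymphocyte genes did not share this, with a median of -0.17 and 0 of 8 T and B cell genes past 2-fold in iBAT. The part of macrophages in the Ucp2 difference was not tested.

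The 5 genes closest to Ucp2 over the 4 arrays were Mdfi, 9230110K08Rik, Msmp, Zfp455 and Fbxo5, at distances from 0.04 to 0.07. They were higher in ASK1KO iBAT by 0.77 to 0.97 and lower in WT iBAT than WT eWAT, with log2 ratios from -1.43 to -1.28. None of them is on the macrophage list. How common distances this small are with 4 arrays was not tested. The directions of these genes follow from their choice by distance, and they are given as a description.

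Ucp3 was measured by 2 probes that gave different tissue patterns. Probe 1 had a signal of 1676 in WT iBAT, 1842 in ASK1KO iBAT, 2191 in WT eWAT and 2237 in ASK1KO eWAT. Probe 2 had 2164, 1813, 573 and 610 in the same order. In these signals the iBAT arrays were higher than the eWAT arrays by probe 2 and lower by probe 1, so that the direction of probe 1 between tissues turns with the scaling. Relative to the 75th percentile, by probe 2, Ucp3 was 7.14-fold higher in iBAT than in eWAT in WT and 5.07-fold higher in ASK1KO, and by probe 1 it was 1.45-fold and 1.41-fold higher. The log2 values were 2.84 and 2.34 by probe 2 and 0.53 and 0.49 by probe 1, so that the mean over both, 1.68 in WT and 1.42 in ASK1KO, describes neither probe. Why the probes differ was not tested. Skeletal muscle genes were higher in iBAT too, with a median log2 ratio over eWAT of 6.92 in WT and 7.28 in ASK1KO. All 15 measured in WT and all 13 in ASK1KO were at least 2-fold higher, against 16.4% and 12.3% of all genes. The part of muscle in the Ucp3 tissue ratios was not tested.

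Neither Ucp3 probe differed much between genotypes. In iBAT the log2 ratio was 0.08 by probe 1, within the software error of 0.20, and -0.32 by probe 2, beyond it. In eWAT it was 0.12 and 0.18, both within the software error. The mean of both probes was -0.12 in iBAT and 0.15 in eWAT, and neither probe reached 2-fold in either tissue. The direction in iBAT depended on the probe, and the ratio of probe 1 there was smaller than the shift of 0.10 between scalings.

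The genes closest to each Ucp3 probe over the arrays also differed. For probe 2 they were Tmem139, Pgk1, Acadm, Uqcrc2 and Ndufs8, at distances from 0.04 to 0.05. Acadm is a fatty acid oxidation enzyme, Pgk1 a glycolytic enzyme, and Uqcrc2 and Ndufs8 are subunits of the respiratory chain, and all 5 were higher in iBAT than eWAT by 2.72 to 2.88 on the log2 scale in WT. For probe 1 the closest genes were Vamp2, Med4, Ccin, Ube4b and Lmx1b, at distances of 0.02, with tissue ratios in WT from 0.49 to 0.57. The likeness of these ratios to those of each probe follows from the choice by distance.

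The uncoupling proteins were also set beside the other mitochondrial carriers. Of 49 other SLC25 genes on the array, 41 were measured in iBAT, of which 0 were at least 2-fold higher in ASK1KO and 1 was lower, near the 0.835% and 1.02% of all genes. This was Slc25a34, with signals of 2963 in WT iBAT, 803 in ASK1KO iBAT, 138 in WT eWAT and 78.1 in ASK1KO eWAT, and a log2 ratio of -1.95 in iBAT and -0.73 in eWAT. The median of the family was -0.17 in iBAT, or -0.06 when only detected probes set the percentile, with 31 of 41 below 0. In eWAT the median was 0.05, with none of 41 past 2-fold. That is near the share of all genes there, 0.286% higher and 0.865% lower. Slc25a48, not well above background in ASK1KO eWAT, was at least 4.26-fold lower there than in WT eWAT. The carriers most like the uncoupling proteins showed small genotype differences. Slc25a14 and Slc25a27, which are also called UCP5 and UCP4, differed by 0.07 and 0.22 in iBAT and by -0.19 and 0.11 in eWAT. Slc25a30 differed by -0.11 and 0.35. Slc25a10, the dicarboxylate carrier, differed by 0.01 and 0.14, and Slc25a11, the oxoglutarate carrier, by -0.15 and 0.14.

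Between tissues, 18 of 41 carriers were at least 2-fold higher in iBAT in WT and 5 were lower, and in ASK1KO 12 of 40 were higher and 6 lower. Over all genes these shares were 16.4% and 13.4% in WT and 12.3% and 12.6% in ASK1KO, so the counts of lower carriers are near the share of all genes. Slc25a34 at 5.34 in WT and 4.13 in ASK1KO, Slc25a20, the acylcarnitine carrier, at 3.57 and 2.90, and Slc25a42, a coenzyme A carrier, at 3.17 and 3.73 had high iBAT over eWAT ratios. All were below those of Ucp1, at 6.62 and 10.80. At the other end Slc25a10 stood at -2.63 and -2.76, below Ucp2 at -1.30 and -0.41.

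**Figure D5:**
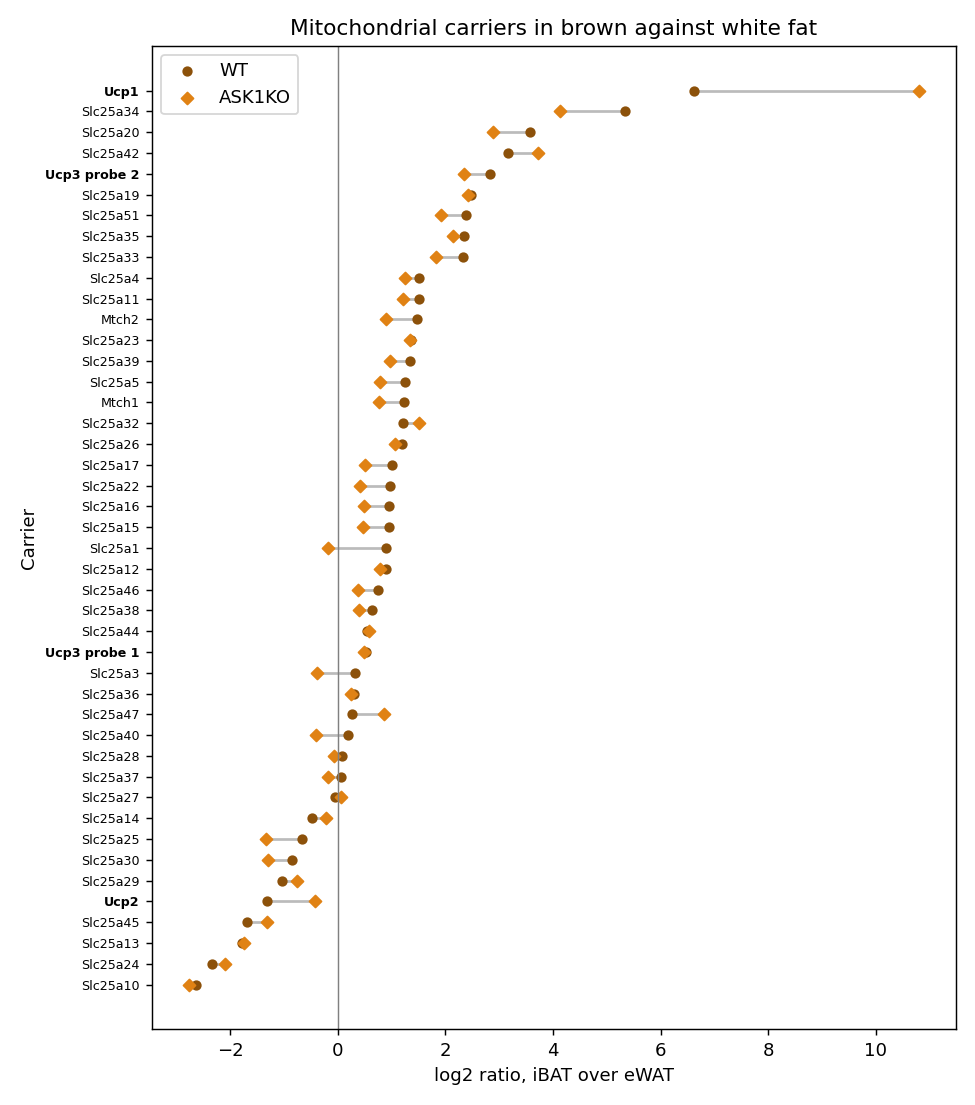
Log2 ratio of iBAT over eWAT (x axis) in WT (circles) and ASK1KO (diamonds) for the uncoupling protein probes (bold) and the other mitochondrial carriers measured in both genotypes. Ucp1 has the highest ratios, 6.62 and 10.80, and Slc25a10 the lowest, -2.63 and -2.76.

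The promoters of the 3 genes are shown because cyclic AMP and nuclear receptors are known to control Ucp1. The RefSeq table (GRCm38.p6) gave a window from 250 bases before to 50 bases after the start of each gene, on the plus strand. Capitals mark TGACG or its reverse complement CGTCA, the short core of the cyclic AMP response element, and AGGTCA or its reverse complement TGACCT, the short element of nuclear receptors. The windows are chr8:83290098-83290397 for Ucp1, chr7:100493108-100493407 for Ucp2 and chr7:100472741-100473040 for Ucp3.
Ucp1 promoter: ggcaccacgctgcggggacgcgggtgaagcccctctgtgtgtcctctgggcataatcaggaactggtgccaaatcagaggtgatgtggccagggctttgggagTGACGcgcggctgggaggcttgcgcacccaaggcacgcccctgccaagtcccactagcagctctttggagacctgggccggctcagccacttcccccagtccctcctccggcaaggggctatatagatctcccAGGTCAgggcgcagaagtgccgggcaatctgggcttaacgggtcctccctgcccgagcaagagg
Ucp2 promoter: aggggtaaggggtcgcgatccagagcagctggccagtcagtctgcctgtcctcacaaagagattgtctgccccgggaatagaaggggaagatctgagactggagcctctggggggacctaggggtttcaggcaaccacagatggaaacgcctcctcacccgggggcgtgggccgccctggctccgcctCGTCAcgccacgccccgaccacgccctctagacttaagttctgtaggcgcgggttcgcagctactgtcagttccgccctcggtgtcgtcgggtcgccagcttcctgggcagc
Ucp3 promoter: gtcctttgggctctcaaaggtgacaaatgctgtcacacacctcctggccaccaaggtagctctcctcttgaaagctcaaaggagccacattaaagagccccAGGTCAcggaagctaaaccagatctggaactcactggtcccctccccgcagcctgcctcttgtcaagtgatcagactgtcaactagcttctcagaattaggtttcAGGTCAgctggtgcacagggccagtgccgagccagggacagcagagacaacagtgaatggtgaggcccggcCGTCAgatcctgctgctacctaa
Each window held the cyclic AMP core once, at position -147 from the gene start for Ucp1, -62 for Ucp2 and 27 for Ucp3, and 20.8% of the 32851 promoters in the table held it. The nuclear receptor element was found once in Ucp1, at -14, and at -149 and -44 in Ucp3, with 0 matches in Ucp2, and 16.3% of all promoters held it. The letters TATAAA were found in 0 of the 3 windows and in 13.6% of all promoters, on either strand. The windows had a GC content of 64.7%, 64.3% and 55.0%. The matches did not overlap each other. A match says that the letters are there and nothing about binding.

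Of the genes next to the uncoupling proteins, none measured reached 2-fold between genotypes. That is near the share of all genes, of which 0.835% were higher and 1.02% lower in iBAT, and 0.286% and 0.865% in eWAT. Rnf150 and Tbc1d9 on one side of Ucp1 differed by 0.64 and 0.03 in iBAT and by 0.42 and 0.02 in eWAT, and Elmod2 on the other side by -0.25 and 0.02, while Mgat4d beyond it was not well above background on both arrays of either comparison. Around the Ucp3 and Ucp2 pair, Ppme1 differed by -0.01 and 0.09, C2cd3 by -0.14 and 0.16, and Coa4 by -0.41 and -0.23 in iBAT and eWAT. Dnajb13 was measured in eWAT alone, at 0.36. Ucp2 and Ucp3, although adjacent, differed from each other by 0.92 against -0.12 in iBAT, while the tissue ratio in WT was -1.30 for Ucp2 and 1.68 for the mean of the Ucp3 probes.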

How the data were processed

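Total RNA of 3 mice per condition was pooled, labelled with Cy3 and hybridised to 4 arrays by the authors, who deposited the scanner software's output (Agilent Feature Extraction 10.7.3.1), in which the processed signal is a background-subtracted intensity on a linear scale, not scaled between arrays. The software sets a multiplicative error of 10% for each spot. A second deposited table holds, for the same arrays, a linear signal that equals the processed signal divided by 1 constant per array (30.9, 34.2, 59.9 and 55.4) that makes the median 1. Groups were taken from the sample labels.

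Here the log2 processed signal minus each array's 75th percentile (356 in WT iBAT, 371 in ASK1KO iBAT, 673 in WT eWAT and 634 in ASK1KO eWAT) was used. Control spots and outlier spots were dropped, and the spots of each probe averaged. For a gene, log2 ratios were averaged over the probes that the software marked well above background on each array compared. Of 34844 gene names 22147 were matched to the RefSeq gene table, giving 22066 genes. Named are the members and their probes, list genes past 2-fold (at most 4 highest and 4 lowest per list and comparison), Slc25a10, Slc25a11, Slc25a14, Slc25a27, Slc25a30, Map3k5, Cidea and Adipoq, the 5 genes of the most similar pattern and the 2 neighbours on each side. Adrb1, Adrb3, Mapk11, Mapk14, Ppargc1a, Prdm16, Slc25a20, Slc25a42, Zic1, Ebf2, Slc29a1, Kcnk3, Ppara, Cd14, Cyp2e1, Ambp, Fgg, Fgb, Ttr and F2 were named after their values were seen. The members and the lists were chosen with earlier results of these data known. No p-value was computed, since each condition has 1 array, and the number of arrays limits the precision.

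The results were recomputed with each Ucp3 probe alone, with the brightest probe of a gene, with a 1.5-fold threshold and with other filters on dim probes. They were also recomputed without scaling, with median centring, with quantile normalization, with the 75th percentile of detected probes (those well above background on every array), with the second deposited table, and with normexp background correction (offset 50). Tested on simulated data, the steps recovered 200 of 200 changed genes over 14548 genes for iBAT and over 15929 genes for eWAT. This checks the computation alone and says nothing of the spread between mice or arrays. The software was R 4.3.3 with limma 3.58.1, and Python 3.11.15 with pandas 2.3.3, numpy 2.4.6 and matplotlib 3.10.9.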

Additional observations from a re-analysis of the deposited data

Results flagged for a closer look

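The mean of the Ucp3 probes and probe 2 alone had genotype ratios of opposite sign in the 2 tissues. The mean had a log2 ratio of ASK1KO over WT of -0.12 in iBAT and 0.15 in eWAT, and probe 2 had -0.32 in iBAT and 0.18 in eWAT. Probe 1 was above 0 in both, at 0.08 and 0.12, so the sign in iBAT depended on the probe, and both eWAT ratios were within the software error. The difference between the tissues was not tested, and each tissue is represented by 1 array per genotype.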

How the results depend on the processing

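No paired analysis was possible because each condition has 1 array, and leaving out a replicate was not possible for the same reason. Of 100 recomputed values for the 3 genes, 46 moved by less than the technical spread and 48 by more. A further 2 ratios went past 2-fold and 4 fell below it, and none past 2-fold changed sign. Differences of genotype ratios were not held to the 2-fold limit. Changes are log2 ratios in the order iBAT genotype, eWAT genotype, WT tissue, ASK1KO tissue and difference of the genotype ratios.

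For Ucp1, normexp gave -0.34, -4.28, 6.42, 10.36 and 3.94, quantile normalization -0.32, -4.72, 6.02, 10.43 and 4.41, and the percentile over probes detected on all 4 arrays moved the iBAT ratio to -0.34, the WT tissue ratio to 6.49 and the difference to 4.31. Without scaling the last 4 were -4.71, 5.70, 10.03 and 4.33. Median centring gave an ASK1KO tissue ratio of 10.72, and the deposited series values 10.73 with a difference of 4.07.

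For Ucp2, the percentile over detected probes gave 1.02 in iBAT (now past 2-fold), a WT tissue ratio of -1.44 and a difference of 1.02. Without scaling the last 4 were -0.058, -2.22, -1.18 (now past 2-fold) and 1.04, so that the sign in eWAT turned. Normexp gave -1.21 in the WT tissue ratio, median centring -0.50 and the series values -0.49 in the ASK1KO tissue ratio, the latter with a difference of 0.78.

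For Ucp3, probe 1 alone gave 0.075 in iBAT, tissue ratios of 0.53 and 0.49 (below 2-fold) and a difference of -0.042, and probe 2 alone -0.32, 2.84, 2.34 and -0.49. Without scaling the eWAT ratio was 0.059, the tissue ratios were 0.76 and 0.65 (below 2-fold) and the difference -0.12. Normexp gave 0.078 in eWAT and tissue ratios of 1.49 and 1.29, quantile normalization -0.026 in iBAT and 1.59 in the WT tissue ratio, the detected percentile -0.018, 1.55 and a difference of -0.14, median centring 1.33 and the series values 1.34 in the ASK1KO tissue ratio, the latter with a difference of -0.38. The cause of these shifts was not tested, except that scaling by a constant per array moves every gene alike, which quantile normalization does not: the median of all genes moved by 0.10 in iBAT with the detected percentile, and without scaling by -0.92 and -0.77 in the WT and ASK1KO tissue ratios.

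Counts of genes at least 2-fold higher and lower were 120 and 146 in iBAT and 44 and 133 in eWAT. They were 38 and 68, and 10 and 50, after normexp, 583 and 544, and 432 and 604, with no filter on dim probes, and 650 and 612, and 212 and 410, at 1.5-fold. Requiring detection on every array, 82 genes were lower in eWAT. Between tissues the counts were 2338 and 1905 in WT and 1790 and 1832 in ASK1KO, 724 and 5635, and 621 and 5173, without scaling, and 4071 and 3044, and 3368 and 3082, at 1.5-fold. With no filter 6268 were higher and 2973 lower in WT, and 2902 higher in ASK1KO. The share of higher genes in iBAT was 45.1%, and 61.8% with the detected percentile, 54.0% without scaling, 32.6% with median centring and 31.7% with the series values. Between tissues it was 55.1% in WT and 49.4% in ASK1KO, and 11.4% and 10.72% without scaling. The Ucp1 signal in ASK1KO eWAT was 252, and normexp with its offset of 50 moved the eWAT ratio from -4.63 to -4.28. The part of the offset in this was not tested.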

Other observations

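Over all genes 0.835% were at least 2-fold higher and 1.02% lower in ASK1KO iBAT, and 0.286% and 0.865% in ASK1KO eWAT, so that a count of 0 in the short lists that follow is near the background. The endothelial list had 0 of 8 genes past 2-fold in either tissue, with medians of 0.14 in iBAT and -0.10 in eWAT. The T and B cell list in eWAT had a median of -0.16 over 11 genes, with 0 past 2-fold. The white adipocyte list had 0 of 4 genes past 2-fold in iBAT and 0 of 8 in eWAT, with medians of 0.13 and 0.01, and the list of genes of either kind of adipocyte 0 of 8 in both, with medians of -0.25 and 0.08. Erythrocyte genes had medians of -0.26 and -0.20 over 4 genes. Of 10 genes of the epididymis, the organ that eWAT adjoins, 1 was measured, at -0.22 in iBAT and -0.04 in eWAT.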
